A study of Homo sapiens with 14 samples.

Results

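The cytosolic ribosomal protein genes encode the proteins of the ribosome that works in the cell body, and they were examined here in Panc-1 and AsPC-1, established lines grown from human pancreatic cancer. Members were taken by their symbols (RPL or RPS followed by a number, RPLP0 to RPLP2, and RPSA), without a gene that is not reported. Of 78 matching genes, 70 reached 10 RPKM (mapped reads scaled to gene length and to the depth of the library) in at least 2 libraries and were kept, out of 23040 genes listed and 13427 tested. The 70 members split into 42 genes of the large subunit and 28 of the small subunit. Names and a level made this choice. For RPL39L, RPL9, RPS26 and RPS27 the minimum was met in at least 2 libraries of 1 line only, so for these 4 the choice used a level that differs between the lines.

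Each line was given as 7 libraries of total RNA extracted with TRIzol. They were an untreated mock library, 3 libraries of cells given ANG (angiogenin, a secreted ribonuclease, also called hRNase5) at 1 ug/ml for 1, 5 or 24 h, and 3 libraries of cells given EGF (epidermal growth factor) at 50 ng/ml for the same times. Treatment was done without serum. The labels give no time for the mock libraries. The ligands were used at different concentrations, and each of the 14 groups holds 1 library, so a comparison takes its error from the agreement of the libraries after line and condition are accounted for. In RNA from bulk cells, fewer cells of a kind and less RNA per cell cannot be told apart.

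Depth, read from the spacing of the lowest values, came to between 11.1 and 16.7 M mapped reads for Panc-1 and between 18.7 and 23.7 M for AsPC-1 (M, mega), so every AsPC-1 library was deeper than every Panc-1 library. At these depths 1 read in a gene of 1000 bases is worth 0.0422 to 0.0903 RPKM, far below the members' levels. Genes that span under 400 bp, small nucleolar RNAs among them, took 56.1% to 82.8% of the summed RPKM, a share that differs between libraries. This is a share of RPKM and not of mapped reads, to which RPKM is scaled. The part of the reads that these genes took was not computed. The summed RPKM of the longer genes ran from 301000 to 353000 over the libraries. All 6 epithelial markers (KRT7, KRT8, KRT18, KRT19, EPCAM and CDH1) reached 1 RPKM in both lines, with sums of 899 to 1378 RPKM over the Panc-1 libraries and 1887 to 2463 over those of AsPC-1. Of 6 mesenchymal markers (VIM, CDH2, COL1A1, COL1A2, PDGFRB and DCN), 2 did in Panc-1, with a summed level of 2064 to 2774 RPKM over the libraries, and 1 did in AsPC-1, with 1269 to 1798. The part of this gap in the differences between the lines was not tested. None of 3 endothelial or 3 acinar markers reached 1 RPKM, and of 4 leukocyte markers none did in Panc-1 and 1 did in AsPC-1.

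A ribosome joins a large subunit, which forms peptide bonds, to a small subunit, which reads the messenger RNA, and each ribosomal protein is needed in about equal amounts. Their messenger RNAs are among the most abundant in growing cells. In mammals they typically begin with a run of pyrimidines at the 5′ end, the TOP motif, through which growth signals acting on mTOR and LARP1 control their translation and storage. Growth factor signals therefore act on these messengers largely at translation, a step that the RNA levels measured here do not show.

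The start of the messenger is printed for 9 members on which the results below turn, to show this feature. Each line holds 10 bases before the annotated RefSeq start and 20 from the start on (GRCh38.p14, written 5′ to 3′ on the gene's strand). Capitals mark the longest run of C and T that comes within 5 bases of the start.
RPL13A (chr19:49487598-49487627, plus strand): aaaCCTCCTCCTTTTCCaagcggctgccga
RPSA (chr3:39406710-39406739, plus strand): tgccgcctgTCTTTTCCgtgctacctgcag
RPS23 (chr5:82278335-82278364, minus strand): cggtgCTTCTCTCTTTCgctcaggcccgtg
RPS6 (chr9:19380217-19380246, minus strand): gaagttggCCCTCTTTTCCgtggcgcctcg
RPLP0 (chr12:120201092-120201121, minus strand): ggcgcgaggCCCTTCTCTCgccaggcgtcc
RPS7 (chr2:3575250-3575279, plus strand): cgCCCTCCTCCTCgcgctgtttccgcctct
RPL11 (chr1:23691769-23691798, plus strand): cctggcccataaggCCCTCggccggaagct
RPL32 (chr3:12841546-12841575, minus strand): acgacccatcagCCCTTgcgcgccaccgtc
RPL9 (chr4:39458903-39458932, minus strand): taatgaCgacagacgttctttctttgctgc

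Of the 70 members, 57 had an entry in the RefSeq promoter table. A run of at least 8 C or T touching the 5 bases on either side of the start was found in 42 of them (73.7%), against 10.9% of 27305 promoters of the same kind. It was found in 24 of 35 large subunit members (68.6%) and 18 of 22 small subunit members (81.8%). The marked runs of RPL11 and RPL32, and the single marked C of RPL9, fall below that length. The RPL9 window also holds, in lower case, a run of C and T above that length. It begins just beyond those 5 bases and was not counted. Such a match describes the letters at an annotated start and not a site in use.

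The members differed widely in level. RPL30 had the highest mean over the 14 libraries, 1384 ± 413 RPKM (SD, n = 14), followed by RPL38 (1195 ± 279), RPS21 (972 ± 319), RPL37A (883 ± 260) and RPL11 (868 ± 119). At the other end RPS26 averaged 5.98 ± 3.21 RPKM, RPS27 8.91 ± 2.68, RPS28 13.2 ± 8.80, RPS7 13.3 ± 5.999 and RPL28 13.7 ± 4.04. Proteins that sit in the same particle were thus listed at levels more than 100 times apart, although RPKM is already scaled to gene length.

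**Figure D1:**
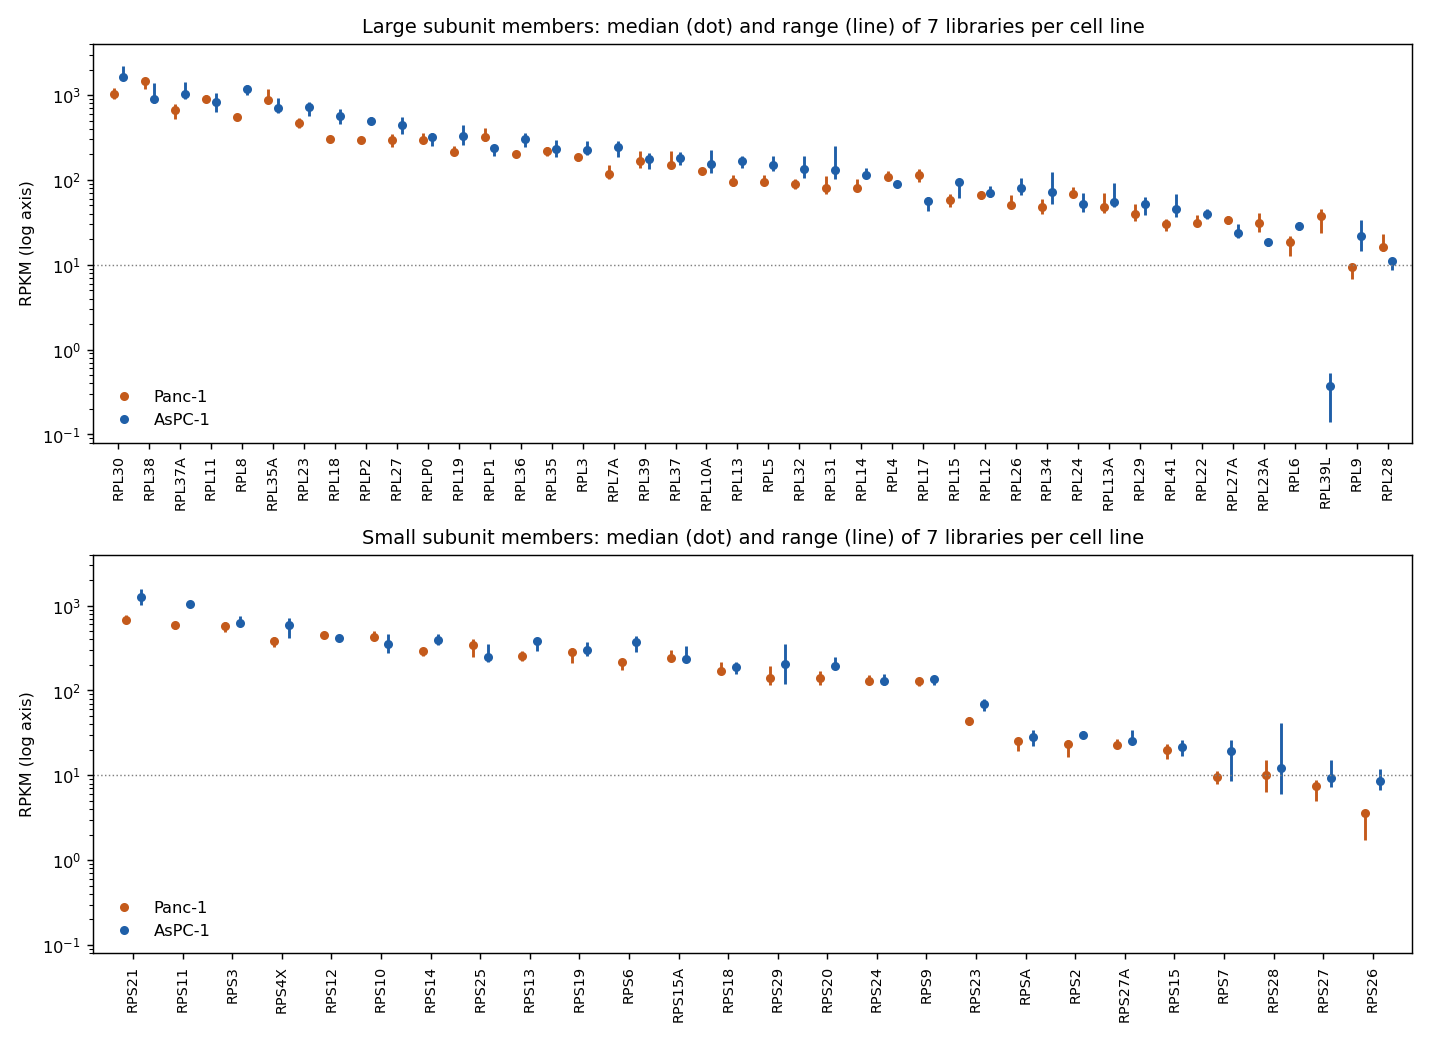
RPKM on a log axis for large subunit members (upper panel) and small subunit members (lower panel), without those not named here, ordered by mean level. Dots are the median and lines the range of the 7 libraries of each cell line, and the dotted line marks 10 RPKM. RPL39L is the one member on different sides of 1 RPKM in the 2 lines.

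The members nearest the level minimum show where it falls. RPS26 passed with 10.1 and 11.8 RPKM in AsPC-1 with ANG at 1 h and EGF at 24 h and was below 10 RPKM in every other library. RPS27 passed in 3 AsPC-1 libraries (12.8, 11.3 and 15.3 RPKM), and RPL39L passed only in Panc-1. Just outside was RPL36A, at 10.2 RPKM in 1 library (Panc-1 with EGF at 5 h). RPL10, a core protein that joins late in assembly, was listed at 2.95 to 5.20 RPKM and is no member, like RPL21, RPS3A, RPL7, RPL10L and RPL3L.

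Low members shared more of their sequence with other genes. Ribosomal protein genes have many processed pseudogenes, near copies of the messenger elsewhere in the genome. The share of 50-base words of the coding part that also occur in transcripts of other genes (GENCODE 29) had a median of 84.9% in the 14 members under 30 RPKM. It was 51.2% in the 34 members from 30 to 300 RPKM and 10.1% in the 22 members at 300 RPKM or more, and 96.1% in the 8 matching genes under the minimum. Over the 70 members this share and the log2 mean level had a Spearman rho of -0.68 and a Pearson r of -0.67, while transcript length and level had a rho of -0.03. Members are not independent replicates, so no p is given, and the coding part was chosen as the measure after values for whole transcripts (rho -0.54) had been seen.

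Single members depart from this order. RPS10, RPL39 and RPL17 shared 100% of their coding words with other genes and were listed at 397, 176 and 84.3 RPKM. RPL39L, a retained copy of RPL39 with its own sequence, shared 0% and averaged 17.4 RPKM, and RPL28 shared 8.77% at 13.7 RPKM. How reads that fit several genes were counted, and the read length, are not stated in the labels or files, so the part that counting plays in the level of a member was not tested, and the levels and differences of RPS26, RPS27, RPS7, RPL9 and similar members are uncertain for this reason.

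**Figure D2:**
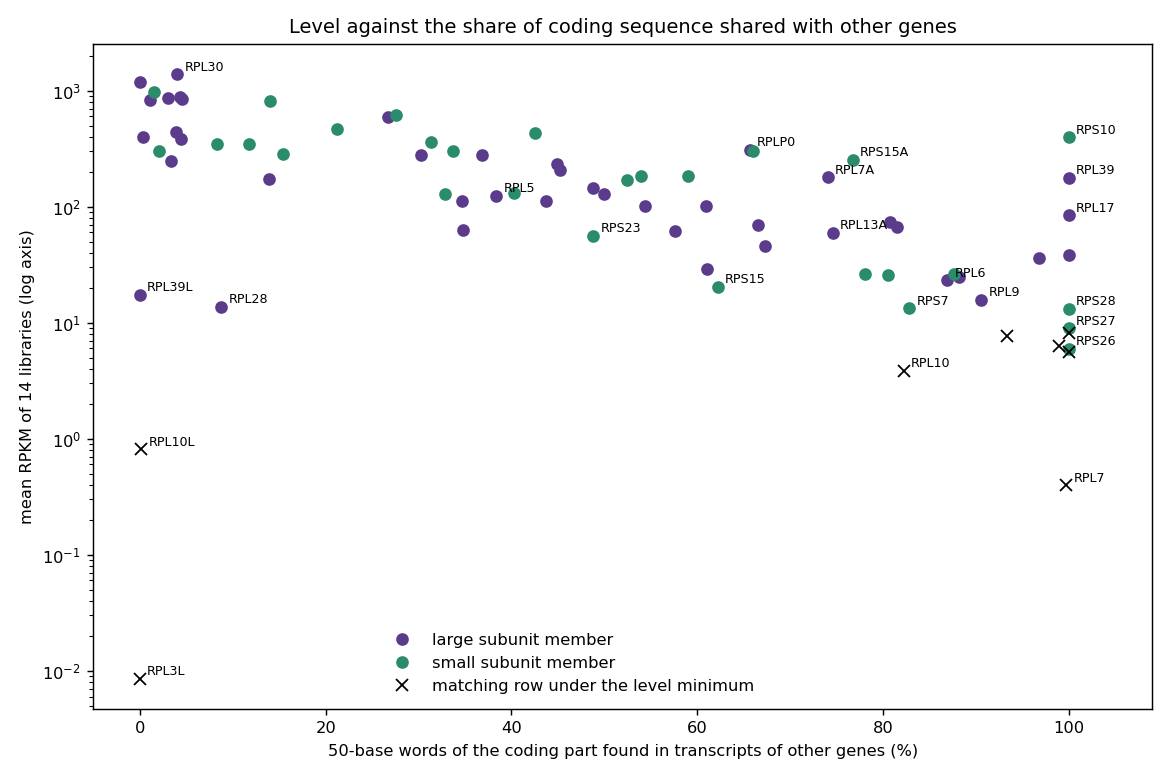
Mean RPKM of 14 libraries (log axis) against the percent of 50-base words of the coding part found in transcripts of other genes, 1 point per gene. Purple and green points are large and small subunit members and crosses the 8 matching genes under the level minimum; points fall from the upper left to the lower right, with RPS10 high at 100% and RPL39L, RPL28, RPL10L and RPL3L low at small shares.

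The 2 subunits stood close to each other in every library. Summed RPKM of the large subunit members was 1.53 to 1.69 times that of the small subunit members. These sums run over 42 large and 28 small subunit members, so the number of genes enters the ratio. The median large subunit member, however, lay below the median small subunit member in all 14 libraries, by 0.48 to 0.97 on the log2(RPKM + 1) scale in Panc-1 (mean difference -0.80 ± 0.17, SD, n = 7) and by 0.36 to 0.74 in AsPC-1 (-0.57 ± 0.13, n = 7). In RPKM the large subunit medians ran from 100.5 to 191 and the small subunit medians from 171 to 266. With means of log2 values in place of medians, the difference became 0.14 for Panc-1 and -0.01 for AsPC-1, so which subunit is called higher depends on the summary, and none is favoured.

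Between the lines, most members differed, with more of them higher in AsPC-1. In limma's test across all genes with Benjamini-Hochberg adjustment (threshold 0.05, all 14 libraries, conditions as a block), 54 of 70 members were called, beside 68.8% of all genes tested. Of these, 13 were higher in Panc-1 (10 large, 3 small; 39.6% of all genes) and 41 were higher in AsPC-1 (26 large, 15 small; 29.3% of all genes). Without RPL39L, RPL9, RPS26 and RPS27, which entered through 1 line, 12 of 66 were higher in Panc-1 and 38 higher in AsPC-1. The median member was lower in Panc-1 by -0.38 (log2; -0.34 without those 4), while the median gene tested was higher in Panc-1 by 0.13. Depth differed between the lines without overlap, so depth and line cannot be told apart.

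RPL39L entered the set through Panc-1 alone, so its difference between the lines is a description and no test of it is given. It was listed at 25.1 RPKM in Panc-1 mock, 46.0, 37.3 and 25.5 with ANG at 1, 5 and 24 h, and 41.4, 41.96 and 23.4 with EGF. In AsPC-1 it was listed at 0.48 RPKM in mock and at 0.14 to 0.53 over the 7 libraries. The mean in Panc-1, 34.4 ± 9.46 RPKM, was 99.4 times the mean in AsPC-1, 0.346 ± 0.156 RPKM (SD, n = 7 each), a difference of 4.68 on the log2(RPKM + 1) scale. The protein is a variant of RPL39 best known from testis and from some cancers, and RPL39 itself, at the exit of the peptide tunnel, averaged 171 RPKM in Panc-1 and 181 in AsPC-1.

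RPL17 averaged 115 RPKM in Panc-1 and 53.7 in AsPC-1, with the lowest Panc-1 library (93.5) above the highest AsPC-1 library (63.2). RPL23A and RPL28 were also among the highest, with log2 differences of 0.67 ± 0.09 and 0.63 ± 0.13 (SE; limma, adjusted p = 0.000156 and 0.00217).

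On the AsPC-1 side, RPL8 (-1.04 ± 0.09), RPL7A (-0.98 ± 0.10) and RPL18 (-0.88 ± 0.11) had low log2 differences, with limma adjusted p-values from 1.23e-05 to 0.000127. RPS26 (-1.23) and RPL9 (-1.17) lay lower still, but both met the minimum through AsPC-1, so these values carry no test. RPL8, a protein near the peptidyl transferase centre, ranged from 543 to 585 RPKM over the Panc-1 libraries and from 1004 to 1304 over those of AsPC-1. Without overlap between the 7 libraries of each line stood 8 members with Panc-1 higher (26.1% of all genes tested) and 26 with AsPC-1 higher (18.8%), while 36 overlapped. Without the 4 members that entered through 1 line these counts were 7 and 24.

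**Figure D3:**
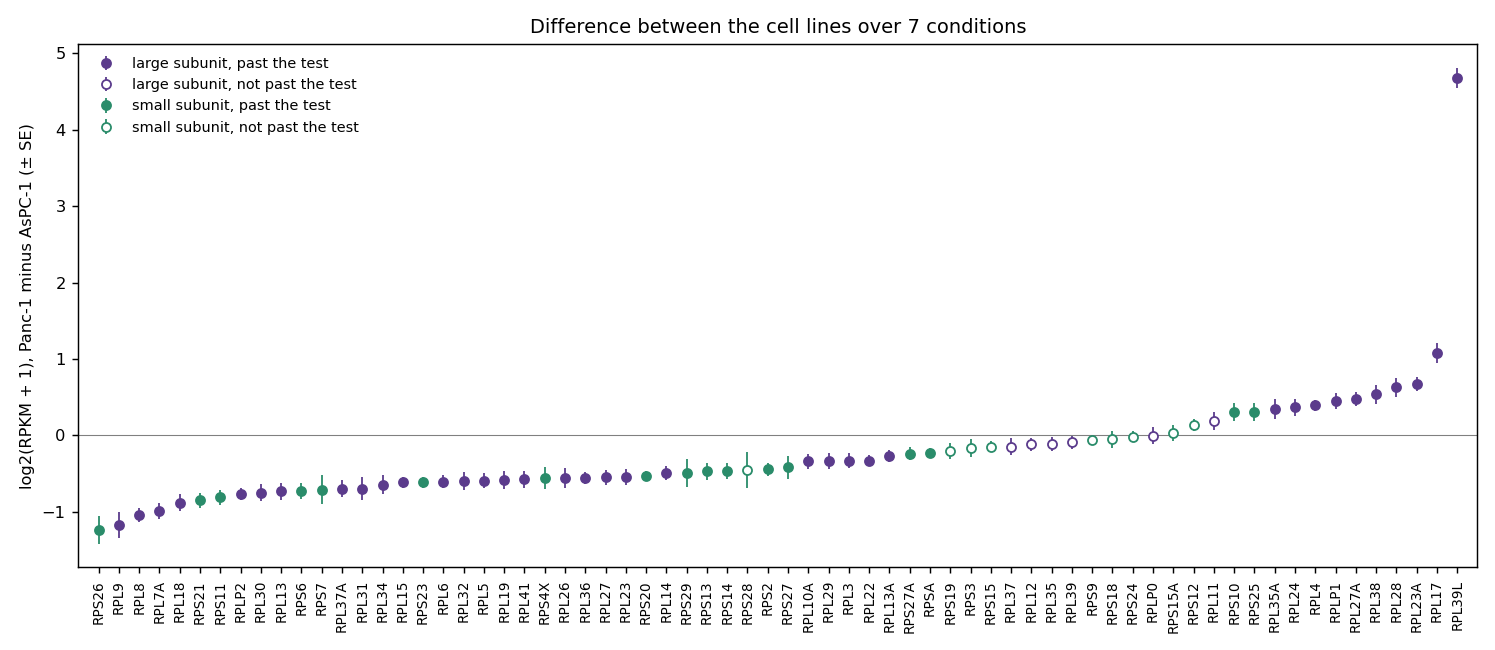
Difference between the lines for the members named here in log2(RPKM + 1), Panc-1 minus AsPC-1, over 7 conditions, with standard errors from limma. Filled points passed the test and open points did not; RPL39L stands at 4.68 and RPS26 at -1.23, and these, RPL9 and RPS27 entered the set through 1 line, so their points are a description.

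Against the mock library of the same line, the members moved differently in the lines. In Panc-1 the summed RPKM of the members was 18540 in mock and between 15800 and 16850 in the 6 treated libraries. In AsPC-1 it was 18490 in mock, 20360 and 20510 with ANG at 1 and 5 h, 23180 and 24730 with EGF at 1 and 5 h, and 18630 and 18650 at 24 h. Mock thus held the highest sum in Panc-1 and the lowest in AsPC-1. As a share of all summed RPKM the order was another: the members took 2.07% in Panc-1 mock, 1.32%, 1.22% and 0.940% with ANG at 1, 5 and 24 h, and 2.10%, 1.27% and 1.25% with EGF. The AsPC-1 shares were 2.15% for mock, 1.29%, 1.17% and 1.43% for ANG, and 1.71%, 3.08% and 1.31% for EGF, so on this total EGF at 5 h alone exceeded mock there. Leaving the genes under 400 bp out of the total, the members took 5.42% of the RPKM in Panc-1 mock and 4.65% to 5.14% after treatment. In AsPC-1 they took 5.34% in mock, 6.65% and 6.82% with ANG and 7.13% and 7.24% with EGF at 1 and 5 h, and 5.58% and 5.65% at 24 h.

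Counted gene by gene in Panc-1, 61 of 70 members were lower than mock with ANG at 1 h (57.9% of all genes), 57 at 5 h (59.6%) and 62 at 24 h (76.2%). With EGF 52, 57 and 59 were lower (55.4%, 61.2% and 65.6% of all genes). The median member differed from mock by -0.21, -0.22 and -0.21 (log2) with ANG and by -0.11, -0.20 and -0.21 with EGF, while the median gene differed by -0.05 to -0.12. Large subunit medians were below small subunit medians in all 6 libraries, for example -0.27 against -0.17 with ANG at 1 h. All 6 contrasts use the same mock library, so they are not independent of each other.

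In AsPC-1, 47 of 70 members were higher than mock with ANG at 1 h (37.6% of all genes) and 47 at 5 h (34.9%). With EGF 60 were higher at 1 h (37.8%) and 60 at 5 h (38.8%). At 24 h 32 were higher with ANG (30.4%) and 29 with EGF (30.4%). The median member differed from mock by 0.12, 0.08 and -0.01 with ANG and by 0.31, 0.35 and -0.04 with EGF, beside -0.14, -0.18, -0.06, -0.14, -0.13 and -0.15 for the median gene. When libraries were centred on their median or rescaled to genes of at least 400 bp, the median member stayed lower than mock in the 6 Panc-1 libraries and higher in the 4 early AsPC-1 libraries. On centring the Panc-1 medians became -0.15 to -0.06, with 41 to 56 of 70 members lower, and the early AsPC-1 medians 0.37 and 0.38 with ANG and 0.57 and 0.63 with EGF. The median gene in those 4 AsPC-1 libraries was then also above mock, at 0.12, 0.13, 0.12 and 0.15. On rescaling the members' medians became -0.20 to -0.07, with 42 to 60 lower, and 0.29, 0.27, 0.40 and 0.37. The median gene of the early AsPC-1 libraries was then at -0.01, -0.03, -0.08 and -0.11. The AsPC-1 medians of the members at 24 h turned to values from 0.03 to 0.17, and the small subunit median in Panc-1 with EGF at 1 and 5 h turned from -0.04 and -0.13 to 0.00 on centring. The share of genes under 400 bp also moved, from 59.7% of summed RPKM in AsPC-1 mock to 80.7% and 82.8% with ANG and 76.0% and 57.5% with EGF at 1 and 5 h, and its part in these medians was tested only by the rescaling.

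**Figure D4:**
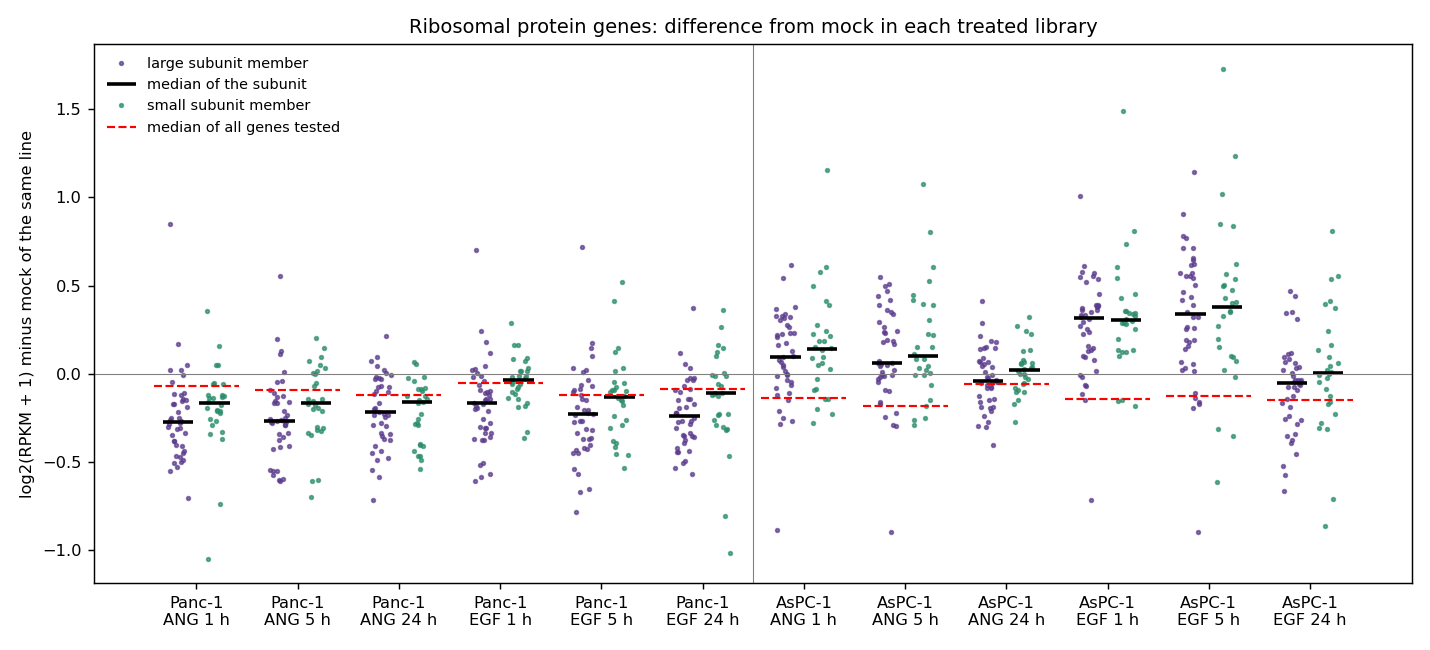
Difference from the mock library of the same line in log2(RPKM + 1), 1 point per member, for the 12 treated libraries (Panc-1 left, AsPC-1 right). Black bars are the medians of the large (purple) and small (green) subunit members and red dashed lines the median of all 13427 genes tested; most members are below 0 in Panc-1 and above 0 in AsPC-1 at 1 and 5 h.

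Few members passed a test for a difference from mock common to both lines. With limma on all libraries and the line as a block, none of 70 members was called for ANG at 1 h (0.0819% of all genes tested called), 5 h (0.112%) or 24 h (0.00%), nor for EGF at 1 h (0.663%) or 24 h (0.00%). At an unadjusted p under 0.05 these 5 comparisons held 3, 3, 0, 1 and 6 members, beside 15.4%, 17.8%, 1.50%, 17.2% and 7.16% of all genes. EGF at 5 h gave 2 members, both lower than mock, beside 4.22% of all genes tested in either direction and 3.63% in the lower one, so the members' share is no higher than the background. They were RPL13A (-0.84 ± 0.15, adjusted p = 0.0263) and RPSA (-0.53 ± 0.11, adjusted p = 0.0426), both from limma with SE.

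RPL13A fell in both lines with EGF at 5 h. It is a protein of the large subunit that can be released in the interferon response and is often used as a reference gene in PCR. Its level was 70.2 RPKM in Panc-1 mock, 47.5, 47.7 and 66.7 with ANG at 1, 5 and 24 h, and 45.7, 40.3 and 55.5 with EGF. In AsPC-1 it was 91.1 RPKM in mock, 48.8, 48.4 and 87.1 with ANG, and 55.0, 48.4 and 80.9 with EGF. In each line the 4 libraries at 1 and 5 h lay below mock and both 24 h libraries. At ANG 1 h, ANG 5 h and EGF 1 h the differences from mock were -0.72, -0.72 and -0.66 and missed the threshold (limma, adjusted p = 0.1, 0.0781 and 0.0829).

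The RPL13A gene lies at chr19:49990865-49995564 on the plus strand of hg19 and holds the small nucleolar RNA genes SNORD32A, SNORD33, SNORD34 and SNORD35A. The listed span of RPL13AP5, a pseudogene on the same strand, overlaps that of RPL13A. RPL13AP5 was listed at 30.02 RPKM in Panc-1 mock, 24.2, 26.85 and 34.2 with ANG at 1, 5 and 24 h, and 26.0, 26.85 and 26.65 with EGF. In AsPC-1 it was at 43.2 RPKM in mock, 30.02 and 32.1 with ANG and 35.5 and 31.2 with EGF at 1 and 5 h, and 43.1 and 37.1 at 24 h. Reads of the 2 genes cannot be separated with certainty, and both were lower at 1 and 5 h than in mock in each line.

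RPSA, a small subunit protein also described as a laminin receptor precursor, lies at chr3:39448204-39454032 of hg19. It was at 27.0 RPKM in Panc-1 mock and 19.4 with EGF at 5 h, against 21.5 to 27.3 in the other 5 treated libraries. In AsPC-1 it was at 34.2 RPKM in mock and 22.0 with EGF at 5 h, against 28.0 to 30.7 in the other 5. EGF at 5 h thus held the lowest RPSA library of each line. The calls of both genes rest on few libraries: no member was called with libraries centred, without the line as a term, or without either mock library or any 1 h or 5 h library. Over 20 alternatives the limma adjusted p ran from 0.0223 to 0.842 for RPL13A, which was called in 8, and from 0.0412 to 1 for RPSA, which was called in 4.

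The other ends of the EGF 5 h comparison, RPS28 (0.63), RPS15 (0.54) and RPS7 (0.54) on the high side and RPL39 (-0.42) on the low side, did not pass. RPS28 had opposite signs in the lines: it was at 14.3 RPKM in Panc-1 mock and 10.1 with EGF at 5 h, but at 11.8 in AsPC-1 mock and 41.6 with EGF at 5 h. Single libraries showed wide differences from mock in AsPC-1, untested for want of a second library. RPS7, which can bind MDM2, went from 8.57 RPKM in mock to 20.3 and 19.2 with ANG and 25.9 and 21.6 with EGF at 1 and 5 h.

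**Figure D5:**
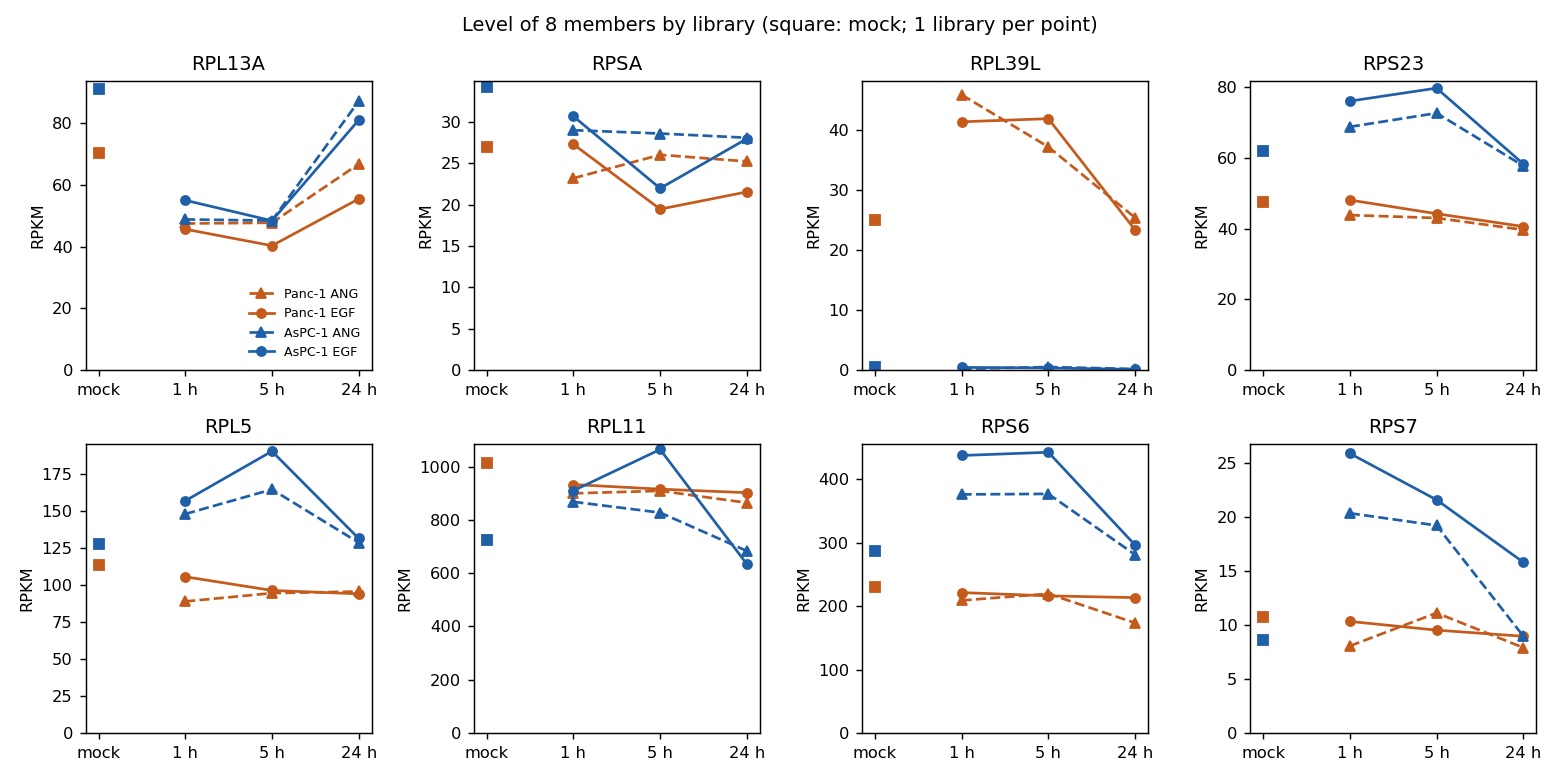
RPKM of 8 members by library, with mock as squares, ANG as triangles and dashed lines and EGF as circles and solid lines, Panc-1 in orange and AsPC-1 in blue; each axis starts at 0 and each point is 1 library. RPL13A is lower at 1 and 5 h than in mock and at 24 h in both lines, whereas RPL5 and RPS6 have early values above mock only in AsPC-1, and RPS7 has all 4 of its early AsPC-1 values above mock.

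By role, the stalk of the large subunit, which recruits the translation factors that use GTP, is built from RPLP0, RPLP1 and RPLP2. RPLP0 averaged 307 ± 23.4 RPKM in Panc-1 and 309 ± 40.1 in AsPC-1 (SD, n = 7 each), and the lines overlapped. RPLP1 averaged 323 ± 38.7 RPKM in Panc-1 and 235 ± 23.5 in AsPC-1, a log2 difference of 0.45 ± 0.10 (SE; limma, adjusted p = 0.00351). RPLP2 went the other way, with 294 ± 15.5 RPKM in Panc-1 and 501 ± 28.9 in AsPC-1, a difference of -0.77 ± 0.08 (limma, adjusted p = 2.62e-05). The 2 stalk genes whose proteins pair with each other were thus ordered oppositely in the lines, each without overlap between libraries. Of all genes tested on chromosome 15, which holds RPLP1 and RPL4, the median was higher in Panc-1 by 0.64 (log2). On chromosome 11, which holds RPLP2, it was higher by 0.24. The part of the chromosome in the differences of these members was not tested.

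RPL5 and RPL11 carry the small rRNA of the large subunit and bind MDM2 when ribosome assembly fails. RPL5 was at 113 RPKM in Panc-1 mock, 88.8, 94.4 and 95.5 with ANG, and 106, 96.3 and 94.0 with EGF. In AsPC-1 it was at 128 RPKM in mock, 148, 165 and 129 with ANG, and 157, 190 and 131 with EGF. All 6 treated Panc-1 libraries lay below mock and all 6 treated AsPC-1 libraries above it. RPL11 had 1015 RPKM in Panc-1 mock and 865 to 933 after treatment, and 724 in AsPC-1 mock, 868, 828 and 684 with ANG and 910, 1065 and 634 with EGF, so its lines overlapped (0.19 ± 0.12, limma, adjusted p = 0.176).

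Of the proteins that shape the catalytic core and the peptide tunnel, RPL3 averaged 183 RPKM in Panc-1 and 231 in AsPC-1, and RPL4 115 ± 11.1 and 87.3 ± 3.87. RPL4 was higher in Panc-1 (0.39 ± 0.07, limma, adjusted p = 0.00102) with no overlap. Around the tunnel exit, RPL23A averaged 30.6 and 18.7 RPKM, RPL26 54.1 and 80.3, and RPL35 223 and 242 in Panc-1 and AsPC-1. RPL23A and RPL26 passed the test of the lines in opposite directions, and RPL35 did not pass (-0.11, limma, adjusted p = 0.335). RPL41, the shortest ribosomal protein, lay between 24.7 and 35.04 RPKM in Panc-1 and between 36.9 and 68.3 in AsPC-1. RPL22, an RNA-binding member, overlapped between the lines (lowest 28.96 and 34.7, highest 38.6 and 45.04 RPKM), whereas RPL7A, at most 151 RPKM in Panc-1 and at least 188 in AsPC-1, did not.

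Among small subunit proteins at the entry and path of the messenger, RPS2 averaged 22.3 RPKM in Panc-1 and 30.3 in AsPC-1, and RPS3 579 and 649. RPS23, at the decoding centre, ranged from 39.7 to 48.1 RPKM over the Panc-1 libraries and from 57.8 to 79.8 over those of AsPC-1, a difference of -0.61 ± 0.07 (SE; limma, adjusted p = 7.68e-05). RPS6, the target of the S6 kinases, was at 230 RPKM in Panc-1 mock and 174 to 222 after treatment. In AsPC-1 RPS6 was at 287 RPKM in mock, 376, 377 and 281 with ANG, and 438, 443 and 297 with EGF, so the 4 early libraries stood clear of mock and 24 h. RPS4X, the X-linked form of its protein, averaged 373 RPKM in Panc-1 and 556 in AsPC-1.

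RPS14 and RPS19, whose loss underlies inherited or acquired anaemias, averaged 292 and 278 RPKM in Panc-1 and 406 and 321 in AsPC-1. RPS14 differed between the lines (-0.47, limma, adjusted p = 0.00433) and RPS19 did not pass (-0.20, adjusted p = 0.116). RPS12 lay between 421 and 477 RPKM in Panc-1 and between 393 and 432 in AsPC-1, where it was the most even named member. In Panc-1 RPL8 was more even, with an SD of 0.04 (log2) against 0.06 for RPS12. RPS27A, made as a fusion with ubiquitin, had medians of 23.01 RPKM in Panc-1 and 25.6 in AsPC-1.

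The ligands were compared at matched times within each line, as 6 pairs of libraries, though at their different concentrations. No member passed limma's test of ANG against EGF (0.156% of all genes tested called), and 14 of 70 had an unadjusted p under 0.05 (16.0% of all genes), 13 of them lower with ANG (8.49%). The median member was lower with ANG by -0.08 (log2), with 55 of 70 below 0, against 0.02 for the median gene. After rescaling to genes of at least 400 bp the median member was at -0.02 with 39 of 70 below 0, against 0.06 for the median gene. On centring it was at -0.10 with 57 of 70 below 0, against -0.0006 for the median gene. The nearest to the threshold was RPL29 (-0.27 ± 0.05, limma, adjusted p = 0.0978).

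RPL29, a basic protein at the surface of the large subunit, was lower with ANG than with EGF in every pair: 35.9 against 39.6, 33.0 against 40.6 and 39.0 against 52.1 RPKM at 1, 5 and 24 h in Panc-1, and 48.0 against 57.6, 52.3 against 63.4 and 44.6 against 52.2 in AsPC-1. In all, 10 members of 70 were lower with ANG in all 6 pairs, RPL8, RPL27, RPL30, RPL37A, RPS14, RPS19, RPS20 and RPS23 among them, beside 5.62% of all genes tested. None was higher with ANG in all 6 (4.57% of all genes). The first count became 12 on centring (6.51% of all genes) and 6 on rescaling (2.85%), where RPL13 and RPLP1 were higher with ANG in every pair (10.7% of all genes). RPL27, RPL29, RPL30, RPL37A and RPS19 were lower in every pair under both, and RPL8, RPS14, RPS20 and RPS23 under neither. The median differences by pair were -0.09, -0.02 and 0.01 at 1, 5 and 24 h in Panc-1 and -0.17, -0.20 and 0.00 in AsPC-1, so the pairs with the widest gap were the early AsPC-1 pairs.

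Over time, no member differed between 1 h and 5 h in limma's test (0.00% of all genes tested called; no member and 1.11% of all genes at an unadjusted p under 0.05). At 24 h against the mean of 1 h and 5 h, 3 of 70 members were called, beside 15.2% of all genes tested (8.82% higher, 6.40% lower). RPL13A was higher at 24 h (0.58 ± 0.09, adjusted p = 0.0069), and RPL39L (-0.50 ± 0.13, adjusted p = 0.0348) and RPS23 (-0.25, adjusted p = 0.0493) were lower, all by limma. The median member was lower at 24 h by -0.11, with 62 of 70 below 0, against 0.06 for the median gene. These comparisons use no mock library.

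The rise of RPL13A was present in each course, by 0.48 and 0.36 in Panc-1 with ANG and EGF and by 0.83 and 0.64 in AsPC-1. It kept its call in all 16 alternative fits, with values from 0.49 to 0.65. RPL39L kept its call in 5 of the 16 fits and RPS23 in 3. RPL39L at 24 h was at 25.5 and 23.4 RPKM in Panc-1, near the 25.1 of mock, against 37.3 to 46.0 at 1 and 5 h, while its AsPC-1 levels stayed under 1 RPKM. RPS23 was lower at 24 h by 0.13 and 0.18 in Panc-1 and by 0.29 and 0.41 in AsPC-1. Leaving out single libraries gave 1 or 2 calls among the members, and centring gave 6.

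The change by 24 h was also compared between the lines. The median member differed from the mean of 1 and 5 h by 0.04 with ANG and -0.04 with EGF in Panc-1 (0.05 for EGF after rescaling), and by -0.15 and -0.35 in AsPC-1. In the interaction test of limma, 12 of 70 members were called, 8 large and 3 small subunit members with a higher value in Panc-1 (18.1% of all genes tested) and RPS26 with a lower one (25.5%). In either direction 43.6% of all genes tested were called, so the members' share, 17.1%, is below the background. The median member had a Panc-1 minus AsPC-1 difference of 0.28, against -0.05 for the median gene. With libraries centred 31 members were called and with rescaling 30, while leaving out Panc-1 with EGF at 24 h left 2 and leaving out AsPC-1 with ANG at 24 h gave 19; leaving out Panc-1 with ANG at 1 h, ANG at 24 h or EGF at 5 h each left 6, and AsPC-1 with EGF at 24 h left 7.

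RPS4X illustrates these members: its change by 24 h was 0.14 and 0.16 (log2) with ANG and EGF in Panc-1 and -0.40 and -0.67 in AsPC-1, a difference of 0.68 ± 0.17 (SE; limma, adjusted p = 0.0138). RPL28 had the lowest adjusted p, with 0.27 and 0.12 in Panc-1 and -0.26 and -0.41 in AsPC-1 (0.53 ± 0.11, limma, adjusted p = 0.0075). RPS26 had values of -0.31 and -0.80 in Panc-1 and 0.15 and 0.64 in AsPC-1, at levels under 12 RPKM. It met the minimum through AsPC-1 with ANG at 1 h and EGF at 24 h, libraries that enter this comparison, so its values are a description. Without the 4 members that entered through 1 line, 10 of 66 were called, all higher in Panc-1. Whether the change depended on the ligand was tested in the same way, and no member was called (0.00% of all genes tested; 1 member and 1.07% of all genes at an unadjusted p under 0.05).

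The introns of ribosomal protein genes house many small nucleolar RNAs. In the listed coordinates 23 members, 16 of the large and 7 of the small subunit, held 49 such genes on the same strand. The median host differed from mock by 0.16 in AsPC-1 with EGF at 5 h and the median of the 47 other members by 0.42, a gap of -0.26. The gap was below 0 in 11 of the 12 treated libraries, from -0.26 to -0.01 in AsPC-1 and down to -0.15 in Panc-1, where ANG at 24 h gave 0.12. All 6 gaps of a line use its 1 mock library, so they are not independent of each other. Large subunit members made up 16 of the 23 hosts, beside 42 of all 70 members, so host and subunit were not separated. Beside small RNAs, 9 members overlapped another gene. TBC1D8, on the opposite strand of RPL31, was at 66.7 RPKM in AsPC-1 mock, 29.1 and 29.8 with ANG and 27.7 and 21.4 with EGF at 1 and 5 h. RPL31 was at 135 RPKM there in mock, 114 and 116 with ANG and 136 and 254 with EGF.

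Within a line the median member varied less than the median gene listed at 10 RPKM or more. The median SD over the 7 libraries was 0.14 (log2) in Panc-1 and 0.20 in AsPC-1, against 0.18 and 0.27 for the 6698 genes with a mean of at least 10 RPKM. Those genes were not matched to the members in level, so the part of level in this difference was not tested. RPS12 had SDs of 0.06 and 0.05, and RPS28 of 0.44 and 0.79. After each line's mean was taken out, the median correlation between 2 members over the 14 libraries was 0.41, and 82.3% of 2415 pairs were above 0; the points share the scaling of their library, so this is a description.

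The genes most like RPL11 in pattern, by this correlation over 14 libraries, were RPL32 (0.94), RPS4X and RPS23 (0.91 each). RPL5 was most like RPL32 (0.91), RPS23 and RPL11 (0.88 each), RPS6 most like RPS23 (0.92), RPL8 and RPL11 (0.90 each), and RPLP0 most like RPL18 (0.79) and RPS13 (0.78). RPL13A was least like each of them, from -0.75 with RPS6 to -0.46 with RPLP0, and had the lowest median correlation with the other members (-0.33), followed by RPS26 (-0.24) and RPSA (-0.14). The starts of RPL13A, RPS6 and RPS23 printed above each carry a long pyrimidine run, and those of RPL11 and RPL32 short ones. A relation between run and pattern was not tested.

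Other genes tied to the ribosome were taken from lists. Of 9 tested fusion genes and paralogues of ribosomal proteins, RPL22L1 was lower at 24 h than at 1 and 5 h (-0.46, limma, adjusted p = 0.0131). So was the member RPL39L (6.40% of all genes lower). Between the lines 4 were lower in Panc-1 than in AsPC-1 (29.3% of all genes). The 1 higher in Panc-1 was RPL39L, which entered the members through that line, so its difference is a description. Of 24 translation factors and other messengers of the TOP class, SNHG1, a snoRNA host, was lower at 24 h (-0.66, adjusted p = 0.0053) and EIF3L, a subunit of an initiation factor, was higher (0.28, adjusted p = 0.0429), both by limma. Between the lines 7 of these 24 were higher and 12 lower in Panc-1 (39.6% and 29.3% of all genes). Their median difference from mock was -0.20 to -0.14 over the treated Panc-1 libraries. In AsPC-1 at 1 and 5 h it was -0.05 and 0.00 with ANG and 0.03 and 0.15 with EGF, beside 0.12, 0.08, 0.31 and 0.35 for the cytosolic members.

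Of 20 regulators of ribosomal protein synthesis and storage, GRWD1, a chaperone of RPL3, was higher than mock with EGF at 5 h (0.85, limma, adjusted p = 0.0473). LTV1, MYC, BCCIP, GRWD1 and LARP1 were lower at 24 h than at 1 and 5 h, by -0.95, -0.75, -0.69, -0.69 and -0.31 (6.40% of all genes lower). MYC is a transcription factor that drives ribosomal protein genes. In AsPC-1 it was at 153 RPKM in mock, 302.5 and 342 with ANG and 278 and 411 with EGF at 1 and 5 h. In Panc-1 it was at 55.2 RPKM in mock, 78.2 and 65.9 with ANG and 114 and 99.4 with EGF. With EGF at 5 h the difference of MYC from mock was 1.13 (limma, adjusted p = 0.0683).

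The 77 mitochondrial ribosomal protein genes, which serve the ribosome inside mitochondria, were set beside the cytosolic set. None was called against mock in the 6 comparisons, 6 were lower at 24 h than at 1 and 5 h (6.40% of all genes), and 20 were higher and 19 lower in Panc-1 than in AsPC-1 (39.6% and 29.3% of all genes). Their median differed from mock by 0.08, 0.09 and -0.19 with ANG at 1, 5 and 24 h in Panc-1 and by 0.16, 0.05 and -0.06 with EGF. In AsPC-1 it was -0.17, -0.19 and -0.06 with ANG and -0.10, -0.08 and -0.04 with EGF. At 24 h these medians lay close to those of the cytosolic members with ANG in Panc-1 (-0.21) and with either ligand in AsPC-1 (-0.01 and -0.04). In the interaction of line and time 6 were higher and 34 lower (18.1% and 25.5% of all genes), with a median of -0.37, against 0.28 for the cytosolic members; these 2 medians are a description and their difference was not tested.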

How the data were processed

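The deposited files give log2 RPKM per gene, computed by the authors on hg19 per the file headers and the submitters' processing notes. Aligner, counter, annotation, strand and read length: not given in the sources used. Values were turned back to RPKM (the lowest, -8.97, is the log2 of 0.002 RPKM, taken as 0) and tested as log2(RPKM + 1), which understates changes of low genes. Genes with 1 RPKM in at least 2 libraries entered limma 3.58.1 (R 4.3.3) with a variance trend and Benjamini-Hochberg adjustment over all 13427 genes. Comparisons against mock used all 14 libraries with line as a term; ligand and time comparisons used 12 libraries within 6 pairs or 4 courses. With 1 library a group, p-values reflect the scatter among libraries alone. Python 3.11.15, numpy 2.4.6 and pandas 2.3.3 did the rest. Depth came from genes of at most 150 bp, whose low values (up to 5 reads) were whole reads within 0.1. Scripts were tested on simulated data.

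The members and lists were chosen with earlier results of these data known. Genes named are fixed core proteins, the 5 highest and 5 lowest by level and, per comparison, up to 5 called members in each direction, or the 3 highest and 3 lowest where none was called. RPS7, RPL31 and the sequences shown were chosen after their values were seen. Some genes are not reported here. Alternatives were a pseudocount of 0.1, no filter, centring, rescaling to genes of at least 400 bp, other terms, and each library left out; counts without the 4 members that entered through 1 line were added after seeing the data.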

Additional observations from a re-analysis of the deposited data

Results flagged for a closer look

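In 12 members the change from the mean of 1 and 5 h to 24 h differed between the lines in limma's interaction test (Panc-1 minus AsPC-1, log2, adjusted p under 0.05), 17.1% of the 70 beside 43.6% of all genes tested. It was higher in Panc-1 for the large subunit genes RPL9 (0.78), RPL17 (0.55), RPL28 (0.53), RPL26 (0.52), RPL18 (0.47), RPL29 (0.46), RPLP0 (0.44) and RPL13 (0.42), and for the small subunit genes RPS4X (0.68), RPS7 (0.62) and RPS18 (0.53). It was lower in Panc-1 for RPS26 (-0.96). Over 16 alternative fits RPL18 kept its call in 5, and RPL9, RPLP0 and RPS7 in 6 each. The other genes listed kept it in 10 to 15. RPS26 and RPL9 met the level minimum in at least 2 libraries of AsPC-1 only, so their values are descriptions, and 10 of 66 were called without the members that entered through 1 line. In RPL9, RPS7 and RPS26 levels are low and much of the coding sequence is shared with other genes, and the part this plays was not tested.

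At 1 and 5 h the median member lay below mock in all 4 Panc-1 libraries and above it in all 4 AsPC-1 libraries, with values farthest from 0 of -0.22 and 0.35 (log2). This difference between the lines was not tested, and each line has 1 mock library.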

How the results depend on the processing

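No paired analysis was possible because each group holds 1 library and the labels carry no replicate numbers by which to pair; libraries of the same line and time, or of the same course, stood as blocks instead. For EGF at 5 h against mock, the 2 calls became 0 with libraries centred, 1 with rescaling to genes of at least 400 bp, 0 without the line term and 1 without the 24 h libraries, and 0 to 2 with single libraries left out. At 24 h against 1 and 5 h the 3 calls became 6 with centring and 1 to 2 with single libraries left out. For the dependence on the line the 12 calls became 31 with centring, 30 with rescaling and 2 to 19 with single libraries left out. Between the lines the 54 calls became 47 to 52 with single libraries left out. Where a library is left out, a condition against mock keeps 1 library, assumed to vary like the other groups. The cause of these shifts was not tested.

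With means of log2 values, the large minus small subunit median, mean of the Panc-1 libraries, went from -0.80 to 0.14 and that for AsPC-1 from -0.57 to -0.0096; with a minimum of 100 RPKM they were -0.47 and -0.43. With genes of at least 400 bp in the total, the share of summed RPKM, mean of the Panc-1 libraries, went from 1.45% to 4.97%, and the share of summed RPKM, mean of the AsPC-1 libraries, from 1.73% to 6.34%. Over every called member, named or not, 1068 alternative values kept their direction and side of the threshold, 184 lost the call and none reversed. Most of these values belong to the test between the lines, and members that entered through 1 line are among them. For EGF at 5 h against mock, RPL13A kept its call in 8 of 20 alternatives and RPSA in 4. With 1 library a group, only differences shared by lines, times or ligands could be tested.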
